A study of Mus musculus with 3 samples.

Results

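Follicular regulatory T cells (Tfr) were compared with follicular helper T cells (Tfh) inside each deposited sample of mouse spleen. Members were all cells that the authors listed as Tfr or as Tfh, 4909 and 13784 of the 18693 listed cell entries. They divide into 1416 Tfr and 3727 Tfh cells in WT run 1, 1449 and 3668 in WT run 2, and 2044 and 6389 in BKO. Mice labelled Wild-Type (WT) gave the first 2 samples, and mice labelled Siglec-G B-cell knockout (BKO) gave the third. Both genotypes had been immunised with ovalbumin in liposomes 14 days earlier, and Tfh and Tfr cells had been sorted together by surface markers. Siglec-G is a sialic-acid-binding receptor that dampens B cell receptor signalling. The promoter behind the B cell deletion, the age of the mice and how many mice were pooled are not given in the sources used here. This comparison asks how a Tfr cell differs from a Tfh cell of the same library, and genotypes were not compared.

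Tfh cells express the transcription factor Bcl6 and the follicle-homing receptor Cxcr5, and supply germinal centre B cells with CD40 ligand, IL-21 and IL-4. Tfr cells share the follicular location but carry Foxp3, the transcription factor that defines regulatory T cells, and restrain the germinal centre response. Regulatory T cells are known for high levels of the IL-2 receptor alpha chain (Il2ra), which lets them take up IL-2, and of Ctla4, which removes CD80 and CD86 from antigen-presenting cells.

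WT run 1 and WT run 2 are the same cells sequenced more than once, so the design holds 2 libraries. All 5554 barcodes in the matrix of run 1 occur among the 5721 of run 2, and their UMI totals correlate at r = 0.997 across barcodes. A UMI is a molecular identifier that counts 1 captured RNA molecule. The labels put BKO and the first WT run in batch 1 and the second in batch 2. The matrices hold 32518538 UMIs for WT run 1, 54059000 for WT run 2 and 85225125 for BKO, whose matrix also lists barcodes without a cell. Tfr cells were deeper than Tfh cells in each sample, with medians of 5146 against 4413 UMIs per cell in WT run 1, 8407 against 7293.5 in WT run 2 and 7054.5 against 6243 in BKO. Between BKO and WT run 2, 13 cell barcodes are shared.

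Foxp3 separates the classes by construction and is described here without a test. Every Tfr cell had at least 1 Foxp3 UMI, and summed Foxp3 was 356 CPM (UMIs scaled to a common total of 1000000) in Tfr of WT run 1, 331 in the second run and 349 for BKO. Tfh cells held 0.801, 16.5 and 1.33 CPM, and 0.402%, 9.95% and 0.908% of them had a Foxp3 UMI in the deposited matrices. WT run 2 stands apart here, and its matrix holds a median of 1.52 times the UMIs per cell that the authors' table gives for that run. In BKO barcodes with 50 UMIs or fewer, which hold free RNA, Foxp3 stood at 112 CPM against 91.4 in cells of that matrix.

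The share of cells in the Tfr class rose with the depth of the cell. Tfr cells made up 27.5% of the listed cells in WT run 1 (95% exact Clopper-Pearson interval 26.3 to 28.8), 28.3% in WT run 2 (27.1 to 29.6) and 24.2% in BKO (23.3 to 25.2). From the shallowest to the deepest of 4 equal bins of cells the share went from 20.7% to 38.3% in WT run 1, from 20.9% to 39.0% in WT run 2 and from 16.6% to 29.8% in BKO. Of 5068 WT cells listed in both runs, 527 (10.4%) had a different class in the other run. These intervals cover counting error only.

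**Figure D1:**
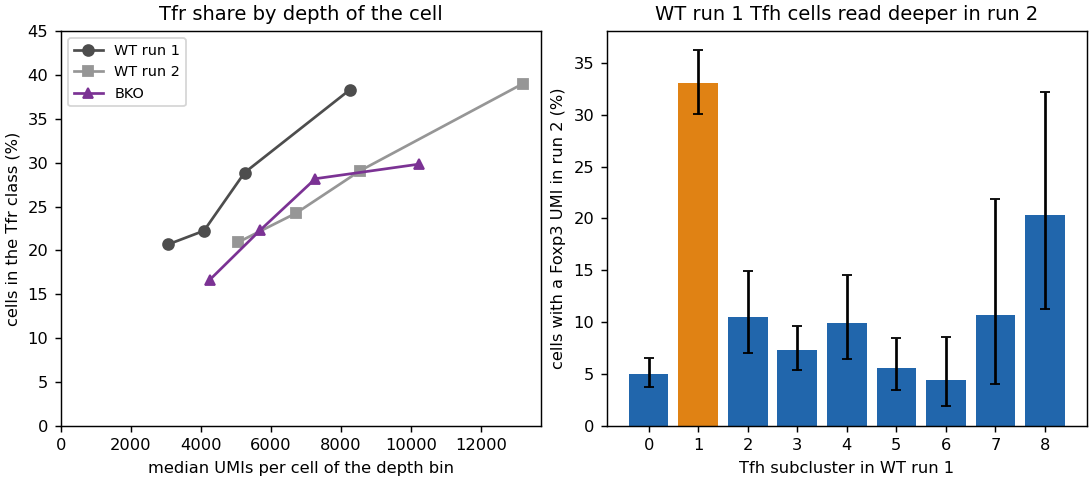
Left, percent of listed cells in the Tfr class (y axis) against median UMIs per cell (x axis) in 4 bins of depth for WT run 1, WT run 2 and BKO. Right, percent of Tfh cells of WT run 1 with a Foxp3 UMI in WT run 2 (y axis) for each of the authors' Tfh subclusters (x axis), with 95% exact intervals as bars. The Tfr share is highest in the deepest bin in each sample, and subcluster 1 stands at 33.1% against 20.3% or less in the others.

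One block of Tfh cells crosses the border between the classes. The authors' Tfh subcluster 1 held 927 and 867 cells in the WT runs and 917 cells in BKO. When the Tfh cells of WT run 1 were looked up in the deeper WT run 2, 307 of 927 cells of subcluster 1 (33.1%) had a Foxp3 UMI, against 194 of 2800 other Tfh cells (6.93%). With subcluster 1 counted as Tfr, the Tfr share would be 45.6%, 45.3% and 35.1% in WT run 1, WT run 2 and BKO. Results below use all Tfh cells, and values without subcluster 1 are given for only some of the genes whose call they change.

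Genes called higher in Tfr included Ctla4, Tnfrsf4 and Il1r2, and genes called lower included Il21, Il4 and Cd40lg. UMIs were summed per class and library, the 2 WT runs were averaged into 1 library, and edgeR's quasi-likelihood test took the Tfr minus Tfh difference within libraries. A gene was called when its adjusted p was under 0.05 and its CPM (plus 0.5) lay at least 1.5-fold apart in the same direction in WT run 1, WT run 2 and BKO. Of 9875 genes tested, leaving out Foxp3, 294 were called higher in Tfr (2.98%) and 206 lower (2.09%). The test alone passed 1353 genes higher (13.7%) and 1201 lower (12.2%). Among called genes the median fitted log2 difference was 1.06 upward and -1.22 downward. Across genes, which are not independent replicates, the log2 ratios of WT and BKO had a Pearson r of 0.821, and those of the WT runs, which share cells, 0.945. The fit has 1 residual degree of freedom, so its error also holds any dependence of the difference on genotype. No label says that a library came from more than 1 animal. The error of each gene was moderated toward that of other genes, with a median of 19.6 prior degrees of freedom. The p-values thus rest largely on spread borrowed from other genes, and beyond that only on these libraries.

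**Figure D2:**
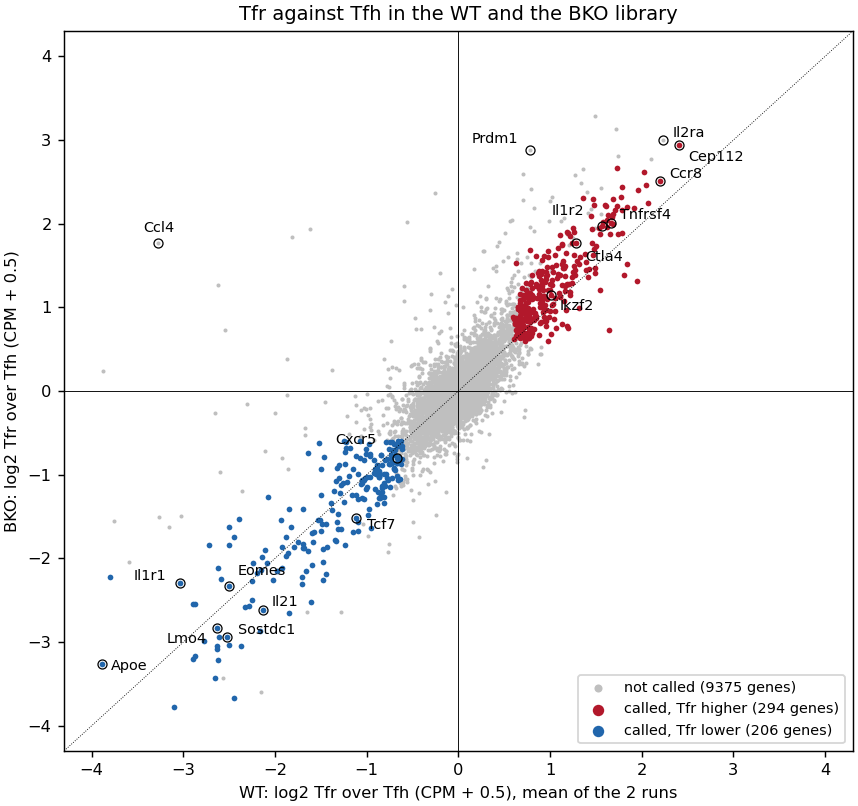
Each point is 1 of 9875 tested genes, with the log2 ratio of Tfr over Tfh in WT (x axis, mean of the 2 runs) and in BKO (y axis), after adding 0.5 CPM. Red points are the 294 genes called higher in Tfr and blue points the 206 called lower, and the dotted line marks equal ratios. Ctla4, Ikzf2, Tnfrsf4, Il1r2 and Ccr8 lie in the upper right, Il21, Il1r1, Apoe and Sostdc1 in the lower left, and Ccl4 is lower in Tfr of WT and higher in Tfr of BKO.

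The 12 genes ranked first on the Tfr side all exceeded 3-fold in each sample. Ranking used the smallest of the 3 sample ratios. Cep112, which encodes a centrosomal protein, stood at 98.4 CPM in Tfr against 16.6 in Tfh of WT run 1, 92.0 against 18.6 in WT run 2 and 95.6 against 12 in BKO. Its fitted log2 difference was 2.71 (SE 0.23, adjusted p = 0.041), and without WT run 1 the adjusted p was 0.0551. Tfr was the higher class in each sample, which the call rule requires. Over the authors' subclusters the classes overlapped, with Tfh subcluster 1 at 57.4 CPM and Tfr subcluster 2 at 42.6 in WT run 1. Ccr8, a chemokine receptor found on activated regulatory T cells, stood at 11.6 against 2.14, 12.4 against 2.31 and 17.0 against 2.59 CPM (log2 2.60, SE 0.18, adjusted p = 3.3e-10). Itgae, the CD103 integrin chain that binds E-cadherin, stood at 22.6 against 4.91, 22.7 against 5.28 and 18.6 against 2.97 CPM (log2 2.39, adjusted p = 1e-09).

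Lrrc32 encodes GARP, which holds latent TGF-beta on the surface of regulatory T cells. Its level was 45 against 10.9 CPM in WT run 1, 43.6 against 10.1 in WT run 2 and 28.0 against 4.12 in BKO (log2 2.41, SE 0.20, adjusted p = 0.0028). Swap70, a phosphoinositide-binding signalling protein, followed at 77.7 against 23.0, 74.7 against 20.4 and 43.9 against 9.43 CPM (log2 2.01). Both were higher in Tfr in each sample, as the call rule requires. The group also held genes of secreted and matrix proteins: Hgf (hepatocyte growth factor, log2 2.42), Vegfc (a lymphatic growth factor, 2.21), Lamc1 (a laminin chain, 2.08), Matn2 (a matrilin, 2.24) and F13a1 (a transglutaminase of clotting, 2.19). Ccrl2, an atypical chemokine receptor (2.24), and Laptm4b, a lysosomal membrane protein (2.12), complete it. Hgf, Vegfc, Ccr8, Ccrl2, Itgae, F13a1 and Laptm4b had a UMI in under 11% of Tfr cells in each sample.

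**Figure D3:**
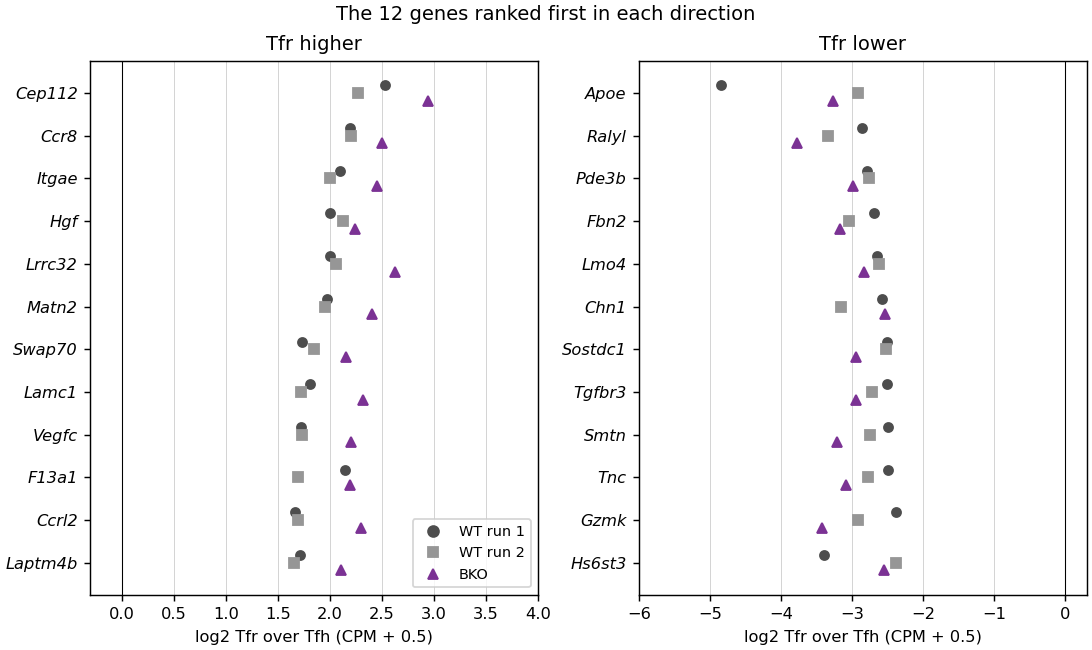
Log2 ratio of Tfr over Tfh (x axis, CPM plus 0.5) for the 12 genes ranked first in each direction (y axis), with a circle for WT run 1, a square for WT run 2 and a triangle for BKO. The points of each gene fall on the same side of 0 in the 3 samples, as the call rule requires, and Apoe has the widest gap between samples.

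On the Tfh side the first 12 genes were lower in Tfr by more than 4-fold in each sample. Apoe, which encodes a lipid carrier protein, ranked first by the smallest of its 3 ratios, at 0.602 CPM in Tfr against 31.3 in Tfh of WT run 1, 3.17 against 27.3 in WT run 2 and 4.65 against 49.1 in BKO (log2 -3.50, SE 0.12, adjusted p = 2.8e-15). Few cells carried it: 64 of 3727 Tfh cells of WT run 1 had an Apoe UMI, and the 10 highest cells held 69.3% of the UMIs there, 69.6% in WT run 2 and 42.3% in BKO. Without WT run 2 the adjusted p of Apoe was 0.167.

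Genes of this group differed in how many cells carried them. Lmo4, a LIM-domain transcriptional cofactor, stood at 28.9 against 184 CPM in WT run 1, 32.3 against 201 in WT run 2 and 30.0 against 217 in BKO (log2 -2.76, SE 0.07, adjusted p = 1.1e-16). Pde3b, a phosphodiesterase that breaks down cyclic AMP, stood at 18.1 against 128, 18.3 against 128 and 19.8 against 161 CPM (log2 -2.93, SE 0.07, adjusted p = 2e-17). For both genes the 10 highest Tfh cells held under 6% of the UMIs in each sample. Fbn2, Hs6st3 and Ralyl came from fewer cells, with 28.9%, 25.7% and 20% of the Tfh UMIs of WT run 1 in the 10 highest cells.

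Sostdc1, a secreted antagonist of BMP and Wnt signalling made by Tfh cells, stood at 40.9 against 236 CPM, 37.4 against 217 and 36.3 against 283 (log2 -2.76, SE 0.12, adjusted p = 0.00056). The remaining genes were Ralyl (an RNA-binding protein, log2 -3.49), Fbn2 (fibrillin, -3.40), Chn1 (a Rac GTPase-activating protein, -2.89), Tgfbr3 (the TGF-beta co-receptor betaglycan, -2.87), Smtn (an actin-binding protein, -3.04), Tnc (tenascin, -2.97), Gzmk (a granzyme, -3.04) and Hs6st3 (a heparan sulfate sulfotransferase, -2.71). Ralyl (adjusted p = 0.016) and Gzmk lost their calls without WT run 2, where edgeR gave adjusted p of 0.14 and 0.171. Hs6st3 lost it with WT cells of the same class in both runs (0.206), and Tnc with Tfr cells of at least 2 Foxp3 UMIs (0.0973).

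Over the authors' subclusters of at least 50 cells, few of these genes separated the classes fully. Each Tfr subcluster lay above each Tfh subcluster for 2, 3 and 2 of the 12 Tfr-side genes in WT run 1, WT run 2 and BKO, with Lrrc32 among them in each sample. The reverse separation held for 0, 0 and 1 of the 12 Tfh-side genes. With Tfh subcluster 1 set aside, the counts were 11, 10 and 10 on the Tfr side and 2, 2 and 3 on the Tfh side. In WT run 1, Sostdc1 spanned 32.7 to 1095 CPM over Tfh subclusters and 7.37 to 76.1 over Tfr subclusters. Subclusters were made from expression of the same cells, and the genes were ranked by their ratio in those cells. No share over all genes was taken, so these counts and ranges are a description.

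Genes of regulatory T cell identity were mostly higher in Tfr. Of 20 members tested besides Foxp3, 9 were called higher and 0 lower, against a background of 2.98% and 2.09% of all genes, and 12 passed the test alone. For the test alone the background was 13.7% higher and 12.2% lower, and these shares apply to every list below. Their median log2 difference was 1.70, against -0.01 over all genes. The lists were partly drawn from known markers of these cells and chosen with earlier results of these data in view, so their direction is not independent evidence.

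Ctla4 stood at 357 CPM in Tfr against 148 in Tfh of WT run 1, 355 against 143 in WT run 2 and 615 against 181 in BKO. The fitted log2 difference was 1.53 (SE 0.17, adjusted p = 0.039). Tfr was higher in each sample, but without WT run 2 the adjusted p was 0.0545. Il2ra stood at 94.5 against 21.2, 103 against 20 and 72.4 against 8.63 CPM, a larger ratio, yet it did not pass the test (log2 2.66, SE 0.35, adjusted p = 0.146). Its Tfr level was above its Tfh level in each sample, and the WT runs share cells. Il2ra passed by DESeq2 and limma-voom. It also passed without Tfh subcluster 1 (log2 3.61, adjusted p = 1.1e-06). That subcluster was made from expression of the same cells. In WT run 1 it held 60.2 CPM of Il2ra against 9.21 in other Tfh. Leaving it out thus had to widen the ratio, and that pass is no independent support.

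Ikzf2, which encodes the Ikaros-family factor Helios, was among the most abundant of these genes and was called higher (log2 1.07, SE 0.06, adjusted p = 2.2e-11). Its relative Ikzf4 (Eos) stood at 100 against 32.5, 97.9 against 31.5 and 86.0 against 20.5 CPM (log2 1.85). Gpr83, an orphan receptor of regulatory T cells, was called at log2 1.41. Izumo1r, the folate receptor family member FR4, and Nrp1, neuropilin, passed the test but not the 1.5-fold rule, with log2 0.34 and 0.49. Capg (log2 1.73, adjusted p = 0.051), Klrg1 (2.07, 0.33), Tigit (0.76, 0.11) and Prdm1 (1.99, 0.46) did not pass. Prdm1, which encodes Blimp-1, stood at 22.9 against 12.4 CPM in WT run 1, 23.1 against 14.0 in WT run 2 and 55.9 against 7.16 in BKO.

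Suppressive effectors were less uniform. Of 14 tested, 4 were called higher and 0 lower, with a median log2 of 1.36. The called genes were Ctla4, Il1r2, Nrn1 (neuritin, log2 1.86) and Areg (amphiregulin, an epithelial growth factor, 1.40). Il10, the anti-inflammatory cytokine, stood at 8.18 against 10.4 CPM in WT run 1, 5.61 against 10.2 in WT run 2 and 25.4 against 5.88 in BKO (adjusted p = 0.73). The sign of its ratio thus differed between the WT runs and BKO. Ebi3, a subunit of IL-35 and IL-27, stood at 35.1 against 13, 38.0 against 13.1 and 27.7 against 5.77 CPM without passing (log2 1.87, adjusted p = 0.06). Tgfb1 and Nt5e (CD73) passed the test alone, at log2 0.32 and 0.57.

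In the TNF family, receptors were called on the Tfr side and ligands on the Tfh side. Over all genes 2.98% were called higher and 2.09% lower, and the test alone passed 13.7% and 12.2%. With so few members, genes past the test against these directions are no result about the family. Of 11 receptors tested, 3 were called higher and 0 lower, with 4 and 2 past the test alone. Of 9 ligands, 0 were called higher and 4 lower, with 2 and 4 past the test alone. Fas (log2 -0.19) and Tnfrsf26 (-0.45) were the receptors past the test downward, and Tnfsf10 (TRAIL, 0.57) and Ltb (lymphotoxin beta, 0.23) the ligands past it upward. Tnfrsf4 (OX40), a costimulatory receptor, stood at 542 CPM in Tfr against 170 in Tfh of WT run 1, 488 against 156 in WT run 2 and 808 against 200 in BKO (log2 1.84, SE 0.10, adjusted p = 2.4e-05). Tnfrsf18 (GITR) stood at 371 against 156, 339 against 141 and 518 against 168 CPM (log2 1.45, SE 0.10, adjusted p = 0.00026). Tfr was higher for both in each sample, as the call rule requires. Tnfrsf8 (CD30) was also called (log2 1.84, adjusted p = 1.6e-09). Tnfrsf9 (4-1BB) had log2 1.85 and Tnfrsf1b (TNF receptor 2) 1.80 without passing the test, with adjusted p of 0.134 and 0.21.

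Tnfrsf4 and Tnfrsf18 are neighbours on the plus strand of chromosome 4 in GRCm38, at chr4:156013843-156016612 and chr4:156026164-156028895 in GENCODE, with 9551 bases between them. As both were called higher in Tfr, the 250 bases before each RefSeq start (GRCm38.p6, chr4:156013445-156013694 and chr4:156026072-156026321) are shown 5′ to 3′, with capitals marking the forkhead core, TGTTT or its reverse complement AAACA on either strand, to which Foxp3 and other forkhead factors bind.
Tnfrsf4: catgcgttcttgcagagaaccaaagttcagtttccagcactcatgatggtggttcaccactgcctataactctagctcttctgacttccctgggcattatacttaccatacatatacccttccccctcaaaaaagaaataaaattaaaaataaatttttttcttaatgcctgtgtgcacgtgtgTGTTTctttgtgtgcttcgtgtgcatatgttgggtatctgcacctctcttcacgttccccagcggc
Tnfrsf18: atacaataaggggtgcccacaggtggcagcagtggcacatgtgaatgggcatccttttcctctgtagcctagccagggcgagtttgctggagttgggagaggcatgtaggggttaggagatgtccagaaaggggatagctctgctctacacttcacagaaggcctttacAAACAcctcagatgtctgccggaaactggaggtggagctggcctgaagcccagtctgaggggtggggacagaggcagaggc
Each window holds 1 such core. The Tnfrsf18 window runs past the GENCODE start of that gene at 156026164, and its marked core lies inside that gene model. The core is common: 47.1% of 22862 RefSeq promoter windows of this length hold it, against 42.0% of the 174 matched of the 294 genes called higher and 35.0% of the 120 matched of the 206 called lower. A match of these letters is a description and not a bound site.

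Among the ligands, Cd40lg, the signal that germinal centre B cells need from Tfh cells, stood at 57.8 CPM in Tfr against 185 in Tfh of WT run 1, 62.0 against 195 in WT run 2 and 50.9 against 227 in BKO (log2 -1.92, SE 0.19, adjusted p = 0.043). Tnfsf8 (CD30 ligand) stood at 130 against 421, 129 against 426 and 93.2 against 437 CPM (log2 -1.97, SE 0.20, adjusted p = 0.049). Both were lower in Tfr in each sample, as the call rule requires. Tnfsf8 thus moved opposite to its receptor Tnfrsf8. Fasl, the death ligand, and Tnfsf14 (LIGHT) were called lower as well, at log2 -1.29 and -1.12. Without Tfh subclusters 5 and 6 and Tfr subcluster 6, Fasl stood at log2 -0.63 and did not pass (adjusted p = 0.0979). The p-values of Cd40lg and Tnfsf8 lie close to the threshold, and Tnfsf8 lost its call with plain library totals (adjusted p = 0.0555) and with a minimum of 20 CPM (0.0672). Cd40lg lost its call with Tfr limited to cells with at least 2 Foxp3 UMIs (log2 -2.24, adjusted p = 0.0722).

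Helper cytokines were lower in Tfr. Of 11 B cell help genes tested, 5 were called lower and 1 higher, with a median log2 of -0.85. Il21, which drives germinal centre B cells and plasma cell formation, stood at 11.3 CPM in Tfr against 43.8 in Tfh of WT run 1, 9.08 against 48.9 in WT run 2 and 11.3 against 71.7 in BKO (log2 -2.50, SE 0.10, adjusted p = 3.6e-10). A UMI of Il21 was found in 3.18%, 3.93% and 4.65% of Tfr cells and in 11%, 15.3% and 22.3% of Tfh cells in the 2 WT runs and BKO. Il4, which drives class switching, stood at 29.1 against 90.6, 28.9 against 98.0 and 21.2 against 79.1 CPM (log2 -1.81, adjusted p = 3.2e-14). Ifng was lower too (log2 -2.18). Slamf1, a homophilic adhesion receptor, was the 1 member called higher (log2 0.86), while Sh2d1a, the SLAM adaptor SAP, stood at log2 -0.01 and did not pass.

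Among the Tfh identity genes, calls were mostly on the Tfh side. Of 21 tested, 5 were called lower and 1 higher, against 2.09% and 2.98% of all genes. The test alone passed 10 downward and 4 upward, against 12.2% and 13.7% of all genes. The upward counts are near those shares and are not read as a feature of the list. Cxcr5 stood at 125 against 198 CPM, 122 against 197 and 132 against 231 in WT run 1, WT run 2 and BKO (log2 -0.75, SE 0.06, adjusted p = 1.7e-09). Tcf7, which encodes TCF-1 and supports Tfh fate, stood at 242 against 528, 248 against 538 and 226 against 648 CPM (log2 -1.33, SE 0.11, adjusted p = 0.0018). Ascl2, a factor that promotes Cxcr5 expression, Pou2af1 (the coactivator OCA-B) and Sostdc1 were the other 3 called lower, with log2 -1.59 and -1.23 for the first pair.

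Bcl6 passed the test but not the fold rule, at 121 against 167, 125 against 177 and 110 against 183 CPM (log2 -0.61, adjusted p = 2.4e-06). Batf, an AP-1 factor, was called higher (log2 0.83). The costimulator Icos passed the test upward at log2 0.69 and fell short of 1.5-fold in a sample. Tox, an abundant nuclear factor of these cells, had log2 0.08 and did not pass.

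**Figure D4:**
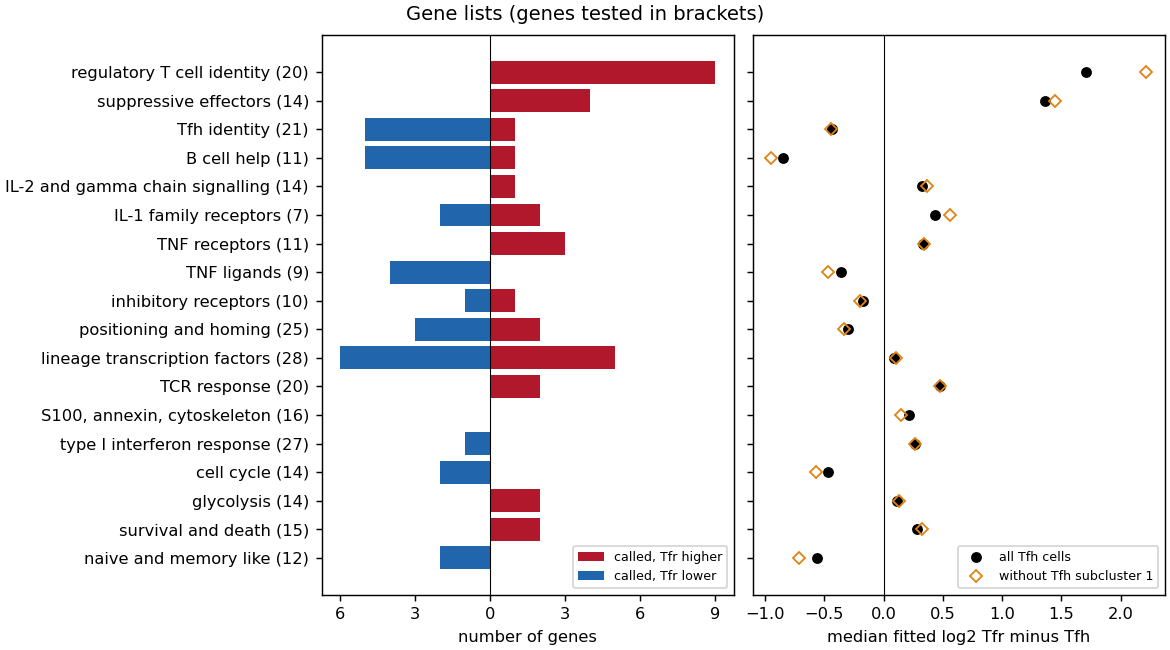
Left, number of genes of each list called higher (red, to the right) or lower (blue, to the left) in Tfr. Right, median fitted log2 Tfr minus Tfh of each list with all Tfh cells (dots) and without Tfh subcluster 1 (diamonds). Regulatory T cell identity has 9 genes called higher and 0 lower, while B cell help and Tfh identity each have 5 called lower and 1 higher.

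Receptors of the IL-1 family did not move as a block. Of 7 tested, 2 were called higher and 2 lower. Il1r2, a decoy receptor that binds IL-1 without signalling, stood at 60.4 CPM in Tfr against 20.4 in Tfh of WT run 1, 60.0 against 19.6 in WT run 2 and 79.9 against 19.9 in BKO (log2 1.82, SE 0.10, adjusted p = 1.5e-05). Il1r1, the signalling receptor for IL-1, stood at 1.20 against 16.2, 1.92 against 16.1 and 1.51 against 9.36 CPM (log2 -2.95, SE 0.20, adjusted p = 4.2e-10). Decoy and signalling receptor were thus on opposite sides in each sample.

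These genes are neighbours on chromosome 1 in GRCm38, all on the plus strand, within 477627 bases. Il1r2 (chr1:40074079-40125231) and Il1r1 (chr1:40225080-40317257) are separated by 99848 bases. Il1rl2 (chr1:40324610-40367562), a receptor for IL-36, was called lower (log2 -2.06, adjusted p = 1.1e-07). Il18rap (chr1:40515362-40551705), the accessory chain of the IL-18 receptor, was called higher (log2 1.17, adjusted p = 1.4e-05), and Il18r1 (chr1:40465552-40500854), its partner chain, had log2 1.19 without passing (adjusted p = 0.33). Il1rl1, the IL-33 receptor that lies between Il1rl2 and Il18r1, was under the minimum of 5 CPM, with 16, 24 and 8 UMIs in Tfr against 8, 17 and 5 in Tfh.

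In the IL-2 and common gamma chain list 1 of 14 genes was called higher and 0 lower, with a median log2 of 0.32. The called gene was Il4ra, the IL-4 receptor chain, at 18.5 against 11.8, 20.5 against 10.2 and 21.9 against 9.70 CPM (log2 1.03, adjusted p = 3.8e-07). Il4 itself was lower in Tfr, as given above. Il2rb and Il2rg, the signalling chains shared with other receptors, passed the test alone at log2 0.61 and 0.42.

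Transcription factors of T cell lineages were called in both directions, 5 of 28 higher and 6 lower. Higher were Ikzf2, Ikzf4, Rora (log2 0.68), Nfil3 (0.81) and Batf. Lower were Tcf7, Ascl2, Ikzf1 (Ikaros, -0.95), Id2 (-0.94), Tbx21 (T-bet, -1.0) and Eomes (-2.61). Ikzf1 stood at 447 against 832, 443 against 834 and 278 against 553 CPM in WT run 1, WT run 2 and BKO, opposite in direction to Ikzf2 and Ikzf4 of the same family.

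Eomes and Gzmk are also on the list of CD8 T and NK cell markers, and their Tfh level was lower in BKO than in the WT runs. In WT run 1, Gzmk stood at 521 and 238 CPM in Tfh subclusters 5 and 6, and at 377 in the 27 cells of Tfr subcluster 6. Other Tfh subclusters held 118 CPM or less. Subclusters 5 and 6 made up 9.63% and 4.86% of Tfh cells in WT run 1, and 0.172% and 1.42% in BKO. The part of these shares in the Tfh levels was not tested. Eomes stood at 13 against 63.6 CPM in WT run 1, 9.08 against 64.8 in WT run 2 and 1.70 against 10.5 in BKO. Of the 9 markers on that list, 5 were tested and 2 of these, Eomes and Gzmk, were called lower. Cd8b1 (log2 0.59) and Klrb1c (0.33) passed the test upward, and Nkg7, a cytotoxic granule protein, did not pass (log2 -1.11, adjusted p = 0.592). The summed level of the list was 132 CPM in Tfr against 410 in Tfh of WT run 1, 100.3 against 388 in WT run 2 and 62.1 against 82.2 in BKO. Nkg7 made up most of the Tfh sum in WT run 1, at 249 CPM. Cd8a had 0 or 1 UMIs in each class and sample. Without Tfh subclusters 5 and 6 and Tfr subcluster 6, an alternative chosen after seeing the data, Gzmk no longer passed (log2 -2.69, adjusted p = 0.087), and 297 genes were called higher (3.01%) and 223 lower (2.26%). Of the named called genes, 11 lost their calls there. Besides Gzmk, Ctla4 (adjusted p = 0.117), Cep112 (0.09), Lamc1 (0.0618), Gpr83 (0.0677), Klf2 (0.0746) and Fasl (0.0979) no longer passed the test, with log2 differences of 1.48, 2.63, 2.04, 1.36, -0.86 and -0.63. Areg, Rora, Nfil3 and Slc2a3 still passed the test but not the 1.5-fold rule.

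Positioning receptors gave 2 called higher (Ccr8 and Itgae) and 3 lower of 25, against 2.98% and 2.09% of all genes. Lower were Cxcr5, Cxcr6 (log2 -2.14), the receptor for CXCL16, and Klf2 (-1.0), the factor that drives exit genes. Gpr183 (EBI2), which guides cells to the follicle edge, passed the test alone at log2 -0.44. Of the naive and memory like genes, 2 of 12 were called lower, Tcf7 and Klf2, and 0 higher. Among inhibitory receptors Ctla4 was called higher and Cd160 lower (log2 -0.90), while Pdcd1 (PD-1) and Btla passed the test alone at log2 -0.35 and -0.47.

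Of TCR response genes 2 of 20 were called higher, Nfkbia (log2 0.88) and Myc (1.24), and 10 passed the test alone upward and 1 downward. In the survival list Bcl2l1 (BCL-XL, which protects cells, log2 1.04) and Bbc3 (PUMA, which promotes death, 1.04) were called higher, 2 of 15. Glycolysis gave 2 of 14, the transporters Slc2a3 (glucose, 0.76) and Slc16a3 (lactate, 1.71), while Gapdh, Ldha and Gpi1 did not pass.

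The cell cycle list gave 2 of 14 lower, Ccnb2 (log2 -2.23) and Birc5 (-2.29), and 0 higher. Type I interferon genes gave 0 of 27 higher and 1 lower, Ly6a (-0.80), with 15 past the test alone upward and a median log2 of 0.26. The S100, annexin and cytoskeletal list gave 0 calls of 16, with 7 past the test alone upward and 2 downward. Over all genes the test alone passed 13.7% upward and 12.2% downward.

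Of 11 B cell markers, 2 reached the minimum of 5 CPM and neither was called. Cd74, the invariant chain, stood at 116 CPM in Tfr against 36.3 in Tfh of WT run 1, 116 against 35.2 in WT run 2 and 128 against 25.8 in BKO (log2 2.02, adjusted p = 0.14). Cd22, an inhibitory receptor of B cells, was lower in Tfr in each sample and passed the test alone (log2 -0.55, adjusted p = 0.00029). Ms4a1, which encodes CD20, had at most 9 UMIs in any class and sample. The summed level of the B cell list was 140, 144 and 161 CPM in Tfr against 69.1, 67.0 and 63.0 in Tfh, and Cd74 made up most of it. Whether B cell RNA has a part in the Cd74 ratio was not tested. Of 8 myeloid markers 1 was tested, Cst3, which passed the test alone at log2 0.31. Conventional T cell markers and dissociation stress genes gave 0 calls of 10 and 0 of 5.

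Tfh subcluster 1 lay closer to Tfr than to the other Tfh cells for most called genes. In WT run 1, WT run 2 and BKO this held for 274, 277 and 261 of the 294 genes called higher and for 178, 170 and 131 of the 206 called lower. Subcluster 1 was made from expression of these same cells, and no share over all tested genes was taken, so the counts are a description. Il2ra in subcluster 1 stood between the classes, at 60.2 CPM against 94.5 in Tfr and 9.21 in other Tfh of WT run 1, and 30.1 against 72.4 and 5.2 in BKO. Ikzf2 in subcluster 1 stood above Tfr, at 3407 against 3173 CPM in WT run 1 and 3342 against 3032 in BKO, with 1029 and 1056 in other Tfh. Il21 in subcluster 1 was near Tfr in WT run 1 (12.3 against 11.3 CPM) and between the classes in BKO (28.4 against 11.3 and 78.6). Apoe ran the other way: subcluster 1 held 77.2 CPM in WT run 1 while Tfr held 0.602.

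**Figure D5:**
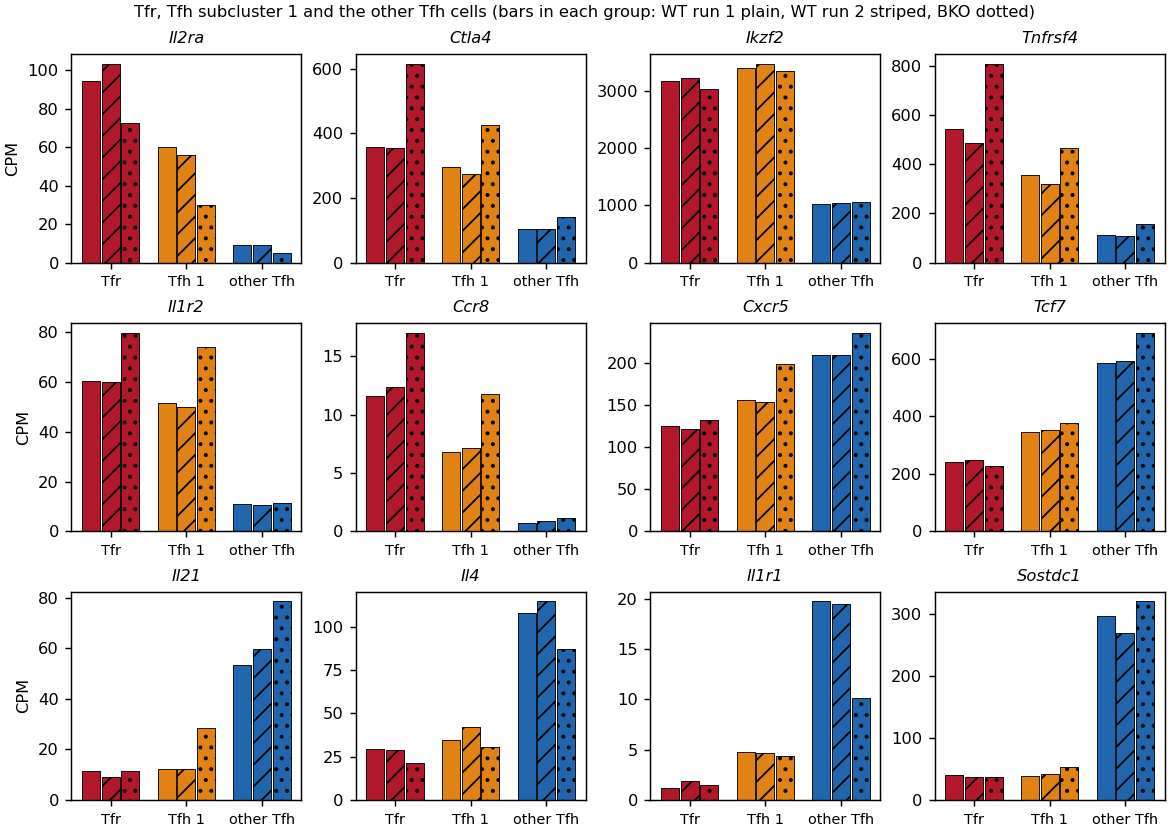
Summed CPM (y axes, from 0) of 12 genes in Tfr, Tfh subcluster 1 and the other Tfh cells (x axes). Within each group the plain bar is WT run 1, the striped bar WT run 2 and the dotted bar BKO. Il1r2 in subcluster 1 is 51.8, 49.8 and 74.2 CPM, near the 60.4, 60.0 and 79.9 of Tfr, and Il1r1 in subcluster 1 is under 5 CPM while other Tfh cells hold 19.8, 19.5 and 10.2.

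Leaving subcluster 1 out widened the differences. It was made from expression of the same cells and lay nearer Tfr for most called genes, so wider differences were built in. With it gone, 450 genes were called higher (4.56% of 9873) and 273 lower (2.77%), and 275 of the 294 and 202 of the 206 genes were called again. Cep112 moved from log2 2.71 to 4.87, Ccr8 from 2.60 to 3.91 and Ikzf2 from 1.07 to 1.56. The Tfh-side genes Il21 and Sostdc1, which were lower in subcluster 1 than in other Tfh, moved less. Il21 went from -2.50 to -2.70 and Sostdc1 from -2.76 to -3.02. Tnfrsf9 was called in this comparison (log2 2.36, adjusted p = 0.026), Slamf6 was called lower (-0.95, 0.029), and Ly6a no longer passed (-0.98, 0.055). Calls gained here depend on which cells were removed, so they are a description and no further support.

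Inside the Tfr class, cells with a single Foxp3 UMI lay on the Tfh side of cells with 2 or more for most called list members. This held for 24, 23 and 25 of the 26 called higher in WT run 1, WT run 2 and BKO, and for 21, 21 and 23 of the 25 called lower. These genes had been called with the same Tfr cells, and no share over all tested genes was taken, so the counts are a description. Areg and Nrn1 were among the exceptions, with Nrn1 at 145 CPM in cells with 1 UMI against 140 in the others of WT run 1. Il2ra stood at 57.6 CPM in the 677 cells with 1 UMI against 123 in the 739 with more in WT run 1, 57.1 against 119 in WT run 2 and 33.9 against 91.6 in BKO. Sostdc1 ran the other way, at 64.2 against 22.7, 71.7 against 25.8 and 67.7 against 20.7 CPM. Il21 followed Sostdc1, at 18.9 against 5.36, 16.7 against 6.52 and 17.9 against 7.94 CPM. Median depth also differed, at 4703 against 5546 UMIs per cell in WT run 1, and its part in these ratios was not tested. When Tfh cells were drawn to match the depth of Tfr cells, 293 genes were called higher and 205 lower, 265 and 186 of them shared with the full comparison. Because summed UMIs were compared, fewer expressing cells and less RNA per cell cannot be told apart.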

How the data were processed

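Follicular T cells of mouse spleen were profiled with 10x 3′ single-cell RNA-seq. Raw UMI counts by gene and barcode were deposited by the authors, with tables that list Tfr and Tfh cells and their subclusters. Cell Ranger and the build mm10 are named in the submitters' processing notes, and the file headers give version 7.0.1 for WT and version 4 for BKO. Intron counting and the treatment of doublets are not given in the sources used here. No doublet caller was run.

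Cells were matched to the matrices by barcode. The runs of WT were averaged and rounded. Sums per class and library were fitted in edgeR 4.0.16 (design: library and class, TMM, robust, Benjamini-Hochberg, mean of at least 5 CPM). The library block pairs Tfr and Tfh of the same cells' library. Standard errors come from that fit, and ratios carry a pseudocount of 0.5 CPM. Shares of cells carry exact intervals at 95%. In counts simulated for this comparison over 9876 genes, the test recovered 86% of 100 genes changed 1.5-fold and 100% of 100 changed 2-fold. It also passed 3 unchanged genes. The simulation gave every gene the same dispersion and no difference between libraries, and the 1.5-fold rule was not applied. These figures therefore do not give the power or error rate of the calls. Alternatives used DESeq2 1.42.0, limma 3.58.1, other minima, left-out runs, subclusters and depth matching.

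Members and lists were chosen with earlier results of these data known. Named genes are the 12 called per direction with the largest smallest ratio (receptor segments, unnamed models, ribosomal and mitochondrial genes left out), called list members, and the 4 list members of highest CPM. Other list members, Ccl4, Rasgef1b and the Apoe cell counts were picked after values were seen.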

Additional observations from a re-analysis of the deposited data

Results flagged for a closer look

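Some genes had Tfr over Tfh ratios of opposite sign in BKO and in both WT runs, and this difference was not tested. The largest among the listed genes given here were a chemokine receptor and a granzyme. Ccr2, a receptor for inflammatory chemokines, stood at 4.57 CPM in Tfr against 12.2 in Tfh of WT run 1, 3.25 against 13.5 in WT run 2 and 4.06 against 0.686 in BKO, a log2 ratio of 1.94 in BKO against -1.33 and -1.90 in the WT runs. Gzmb, a granzyme of cytotoxic cells, had 1.85 in BKO against -1.40 and -2.24. For both genes the Tfh level was lower in BKO than in either WT run.

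Smaller ratios of opposite sign were seen for abundant genes. In BKO the log2 ratio of Tfr over Tfh was 0.0755 for Sh2d1a, -0.43 for Tnfsf11, -0.16 for Runx1, 0.13 for Mcm6, 0.0886 for Gapdh, -0.17 for Bcl2 and 0.14 for Cd3e. None of these 9 genes passed the test of the Tfr minus Tfh difference in edgeR. Opposite signs in the libraries widen the error of that difference, so their selection made this outcome likely.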

How the results depend on the processing

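Against 294 genes called higher and 206 lower, called genes numbered 464 and 406 with a minimum of 1 CPM, 125 and 102 with 20 CPM, 93 and 105 with 2-fold in place of 1.5-fold, and 178 higher with a pseudocount of 5 CPM. Without Tfh subcluster 1, 450 were called higher. DESeq2 passed 611 and 403 genes by its test alone, against 1353 and 1201, and 292 and 215 by both rules. The replicate block of this design is the library, and without that pairing of Tfr with Tfh 120 genes were called higher and 114 lower, with 120 and 117 past the test. Leaving out WT run 1 gave 339 and 229 calls, and leaving out WT run 2 gave 334 and 232. By the fold rule alone, WT without BKO gave 362 and 305, and BKO without the WT runs gave 647 and 392, with Gzmb and Ccr2 turned to 1.85 and 1.94 in log2. The causes were not tested.

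Thinned to 2500 UMIs per cell, Il2ra was found in 15.6%, 16.4% and 12.3% of Tfr cells and 3.48%, 3.18% and 1.42% of Tfh cells in the 2 WT runs and BKO (unthinned 25.9%, 35.5% and 23.0%, and 5.53%, 7.25% and 3.41%). Il21 was found in 1.88%, 1.38% and 2.01% of Tfr cells and 7.25%, 8.03% and 12% of Tfh cells. For the 24 genes ranked first, 385 of 399 values under alternatives kept the call and 14 lost it, with no change of direction. These genes were selected for large ratios in the same cells, and the alternatives share those cells, so the tally is a description. Among other called genes, Tbx21 lost its call by DESeq2 (adjusted p = 0.0509), and Cxcr5, Myc and Tbx21 fell under 1.5-fold in a sample with Tfh cells matched on depth. Precision is limited by 2 libraries and by few UMIs for genes near 5 CPM.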

Other observations

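Flicr, a long noncoding RNA gene beside Foxp3 on the X chromosome, was called higher in Tfr, at 10.6 CPM against 3.63 in WT run 1, 11.1 against 3.58 in WT run 2 and 10.1 against 1.65 in BKO (log2 2.10, adjusted p = 0.00028). It was picked after its values were seen. Whether its reads are separate from those of genes it may overlap was not tested. Ccl4, an inflammatory chemokine, stood at 11.7 CPM in Tfr against 107 in Tfh of WT run 1, 9.16 against 102 in WT run 2 and 2.62 against 0.412 in BKO, and Rasgef1b, a Ras exchange factor, at 6.50 against 32.2, 4.13 against 33.1 and 2.68 against 1.42. Neither passed the test of the Tfr minus Tfh difference, with adjusted p of 0.58 and 0.66, which their opposite signs in the libraries made likely.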
